A study of Mus musculus with 24 samples.

Results

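MHC class I antigen processing was described over 10 genes of the 22165 counted by bulk RNA-seq in bone marrow-derived macrophages (BMDMs). The genes were chosen by name, and each Ensembl gene ID of the table, with its version removed, was matched to the symbols H2-K1, H2-D1, B2m, Tap1, Tap2, Tapbp, Psmb8, Psmb9, Psmb10 and Nlrc5 in GENCODE M21. Each symbol was found in 1 row, and all 10 passed the filter on low counts, which left 11878 genes for testing. WT and Irg1-/- BMDMs, the latter without the enzyme IRG1 (gene Acod1) that makes itaconate, were compared after 4 treatments with 3 independent cultures per group, which gave 8 groups and 24 libraries. All groups came from C57BL/6N mice 8 to 20 weeks old, whose bone marrow was grown with M-CSF (20 ng/ml) for 7 days. Cells were left unstimulated (Unstim.) or received LPS (100 ng/ml), a bacterial ligand of Toll-like receptor 4, for 24 h (LPS 24h). Others had a mock first step, 1 h of rest in fresh medium and LPS for 3 h (LPS 3h). The last were tolerized with LPS for 24 h, rested in the same way and restimulated for 3 h (LPS 24h->LPS 3h). Unstim. and LPS 24h cells had no such rest. The knockout is constitutive, so Irg1-/- cells also developed without the enzyme. The comparisons ask how the class I pathway follows first, prolonged and repeated LPS, and whether that course differs without IRG1.

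MHC class I molecules present short peptides from inside the cell to CD8 T cells. Proteins are cut by the proteasome, which takes up the inducible subunits Psmb8, Psmb9 and Psmb10 during inflammation. TAP1 and TAP2 carry the peptides into the endoplasmic reticulum. Tapasin (Tapbp) helps to load them onto a heavy chain (H2-K1 or H2-D1) paired with the light chain β2-microglobulin (B2m). NLRC5 is a transactivator of class I genes. In macrophages the pathway is known to be raised by interferons and by LPS.

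The libraries held 3927378 to 20430359 reads on genes (median 11539055.5), 48.0% to 59.4% of each column's total. Levels are given as CPM, the read counts of a gene divided by the TMM-scaled library size and brought to a common total. The reads come from transcript 3′ ends, so levels were compared between groups and not between genes. Acod1 checked the genotype labels of the LPS libraries. In WT cells it reached 15643 to 28063 CPM after LPS 3h, 3794.5 to 5799 after LPS 24h and 10381 to 16122 after restimulation. It stayed at 1.58 to 26.4 CPM in every Irg1-/- library. WT Unstim. libraries held 5.82 to 10.0 CPM, so Acod1 cannot check the genotype labels of Unstim. libraries. All 7 macrophage markers were present in every group, with a summed level of 3242 to 9690 CPM. The lowest library was of WT LPS 24h (3242 to 7899 CPM in that group), and no library of another group was below 4990 CPM. Of the markers of other cells, the 4 of B cells summed to at most 2.45 and the 5 of erythroid cells to at most 0.860 CPM. The 7 markers of T or NK cells (Cd3e, Cd3g and Cd8a held at most 3 counts in any library) summed to 5.30 to 11.3 CPM in Irg1-/- Unstim., 2.78 to 3.65 after LPS 3h and 0.608 to 1.15 at the later times, and to 0.346 to 5.17 CPM in WT libraries. The 5 of dendritic cells summed to 5.77 to 11.1, 5.88 to 8.03 and 0 to 0.811 CPM in the same Irg1-/- groups and to 0 to 5.85 CPM in WT libraries. The 4 fibroblast markers summed to 261 to 430 CPM in Unstim. and LPS 3h libraries and to 103 to 245 CPM after LPS 24h and restimulation. The 5 neutrophil markers summed to 32.7 to 64.5 CPM before and to 0.573 to 3.38 CPM after those times. These lists moved with LPS 24h, those of T or NK and dendritic cells without overlap in Irg1-/- cells, and their part in the results below was not tested. The T or NK list is mostly Cd4, which held 596 counts over all libraries, while Cd3d, the next, held 14. In bulk RNA fewer cells of a type and less RNA per cell cannot be told apart. The labels also carry a prefix with 4 values, whose meaning the sources used here do not give. All Unstim. libraries share prefix 4, which no LPS library of Irg1-/- cells has, so treatment and prefix cannot be told apart in the comparisons of Irg1-/- cells with Unstim. In each WT LPS group only replicate 3 has prefix 4, so a prefix-matched comparison of WT cells with Unstim. rests on 1 LPS library. Prefix 3 occurs only in replicates 2 and 3 of Irg1-/- LPS 3h. With the prefix as a term, that group therefore rests on replicate 1, and a lost call there can come from lost replication.

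GENCODE M21 places 7 of the genes near each other on chromosome 17 in the mouse MHC region (GRCm38): Tapbp (33915899-33929292, plus strand), H2-K1 (33996017-34000347, minus strand), Psmb9 (34181987-34187764, minus strand), Tap1 (34187553-34197225, plus strand), Psmb8 (34197721-34201454, plus strand), Tap2 (34203527-34216321, plus strand) and H2-D1 (35262730-35267499, plus strand). B2m lies on chromosome 2 (122147686-122153083, plus strand). Psmb10 (105935735-105938444, minus strand) and Nlrc5 (94434356-94527272, plus strand) lie on chromosome 8. The rows are ENSMUSG00000024308.14 (Tapbp), ENSMUSG00000061232.15 (H2-K1), ENSMUSG00000096727.2 (Psmb9), ENSMUSG00000037321.17 (Tap1), ENSMUSG00000024338.14 (Psmb8), ENSMUSG00000024339.12 (Tap2), ENSMUSG00000073411.11 (H2-D1), ENSMUSG00000060802.8 (B2m), ENSMUSG00000031897.8 (Psmb10) and ENSMUSG00000074151.12 (Nlrc5). Tap1 and Psmb9 overlap at their 5′ ends on opposite strands, Tapbp overlaps Zbtb22 on the same strand, B2m overlaps Patl2 on the other strand, and Tap2, Tapbp, Psmb8, Psmb10 and Nlrc5 overlap non-coding genes on the other strand. The strand setting of the counting is not given in the sources used here, so reads in these overlaps cannot be told apart. Of the 50-base words in the last 500 bases of each transcript, 0.443% of those of H2-K1 also occurred in another gene (H2-D1). The share was 9.53% for H2-D1, in 80 other genes, and 0 for the other 8 members. Values of H2-D1 are therefore less certain.

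Promoter windows are given for the 3 chains, because their courses differed, and for Tap1, which rose most of the peptide transport genes and whose window is nearly that of Psmb9 on the other strand. RefSeq windows (GRCm38.p6), from 250 bases before to 50 after the start, were given for 8 of the 10 members, but not for Tap2 and Nlrc5. Both strands were searched for the core of the interferon-stimulated response element (ISRE, GAAANNGAA), the gamma-activated site (GAS, TTCNNNGAA), the NF-kB consensus, the CCAAT box (CCAAT) and the core of the cAMP response element (TGACG). Capitals mark ISRE core and NF-kB consensus matches. The windows are those of H2-K1 (chr17:34000284-34000583, minus strand, the first of its 2), H2-D1 (chr17:35262844-35263143, plus strand), B2m (chr2:122147437-122147736, plus strand) and Tap1 (chr17:34187306-34187605, plus strand), written 5′ to 3′.
H2-K1: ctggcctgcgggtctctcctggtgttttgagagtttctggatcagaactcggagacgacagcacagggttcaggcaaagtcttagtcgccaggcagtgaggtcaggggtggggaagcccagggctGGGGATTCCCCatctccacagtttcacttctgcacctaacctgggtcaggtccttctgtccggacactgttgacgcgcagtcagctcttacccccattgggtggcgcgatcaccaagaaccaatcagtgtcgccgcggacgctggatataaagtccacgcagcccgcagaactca
H2-D1: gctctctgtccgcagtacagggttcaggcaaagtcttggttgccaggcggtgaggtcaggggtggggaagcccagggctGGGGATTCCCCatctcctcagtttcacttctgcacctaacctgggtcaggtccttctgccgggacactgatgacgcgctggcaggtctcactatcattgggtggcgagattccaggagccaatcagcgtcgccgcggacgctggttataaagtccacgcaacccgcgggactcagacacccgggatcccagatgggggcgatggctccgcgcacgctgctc
B2m: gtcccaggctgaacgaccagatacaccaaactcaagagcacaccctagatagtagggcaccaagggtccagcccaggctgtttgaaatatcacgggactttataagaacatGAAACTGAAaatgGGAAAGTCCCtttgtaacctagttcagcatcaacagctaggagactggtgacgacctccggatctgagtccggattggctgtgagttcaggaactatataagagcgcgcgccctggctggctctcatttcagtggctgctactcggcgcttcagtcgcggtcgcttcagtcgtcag
Tap1: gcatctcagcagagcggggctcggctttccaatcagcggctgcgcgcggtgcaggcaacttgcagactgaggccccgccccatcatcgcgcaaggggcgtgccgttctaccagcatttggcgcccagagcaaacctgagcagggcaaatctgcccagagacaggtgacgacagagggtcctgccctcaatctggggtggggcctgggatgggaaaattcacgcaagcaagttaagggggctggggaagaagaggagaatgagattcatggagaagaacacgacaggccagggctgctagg

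H2-K1 and H2-D1 held the same set of matches: 2 overlapping NF-kB consensus matches in one stretch of capitals, 2 CCAAT boxes and 1 TGACG. The longest run of letters shared by both windows was 47 bases, and it holds that stretch. B2m held 1 ISRE core (GAAACTGAA) and, next to it without overlap, 1 NF-kB consensus match on the minus strand. It also held 1 CCAAT box and 2 TGACG. Tap1 and Psmb9 each held 1 CCAAT box and 1 TGACG, Tapbp held 2 CCAAT boxes, Psmb8 held 1 GAS (TTCCCAGAA), and Psmb10 held no match. Over all 32851 windows of this length in the RefSeq table, the share with a match was 8.56% for the ISRE core, 8.30% for GAS, 8.46% for the NF-kB consensus, 37.4% for CCAAT and 20.8% for TGACG. A match describes letters in a window and says nothing of binding. The ISRE was searched only as GAAANNGAA, and other letter orders of the element were not searched. A window without that match, such as those of H2-K1 and H2-D1, can therefore still hold an ISRE.

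LPS for 3 h raised most of the 10 members in both genotypes. In WT cells 9 of 10 members were higher than in Unstim. (edgeR's quasi-likelihood test, Benjamini-Hochberg adjusted over 11878 genes, threshold 0.05), beside 15.8% of all genes tested in that direction. In Irg1-/- cells, where treatment and label prefix cannot be told apart, 8 of 10 were higher, beside 17.0%, and no member was lower in either genotype. The median log2 fold change over the members was 2.11 in WT and 2.18 in Irg1-/- cells, while that of all genes was -0.18 and -0.20. After LPS 24h, 9 of 10 members were above Unstim. in WT (background 9.25%) and 8 of 10 in Irg1-/- cells (background 7.31%), with medians of 1.99 and 1.53 against 0.0017 and -0.0040 for all genes. Both comparisons of a genotype use the same Unstim. libraries. The adjusted p-values below are from this test. An exact permutation test of 3 libraries against 3 cannot give a p under 0.1.

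**Figure D1:**
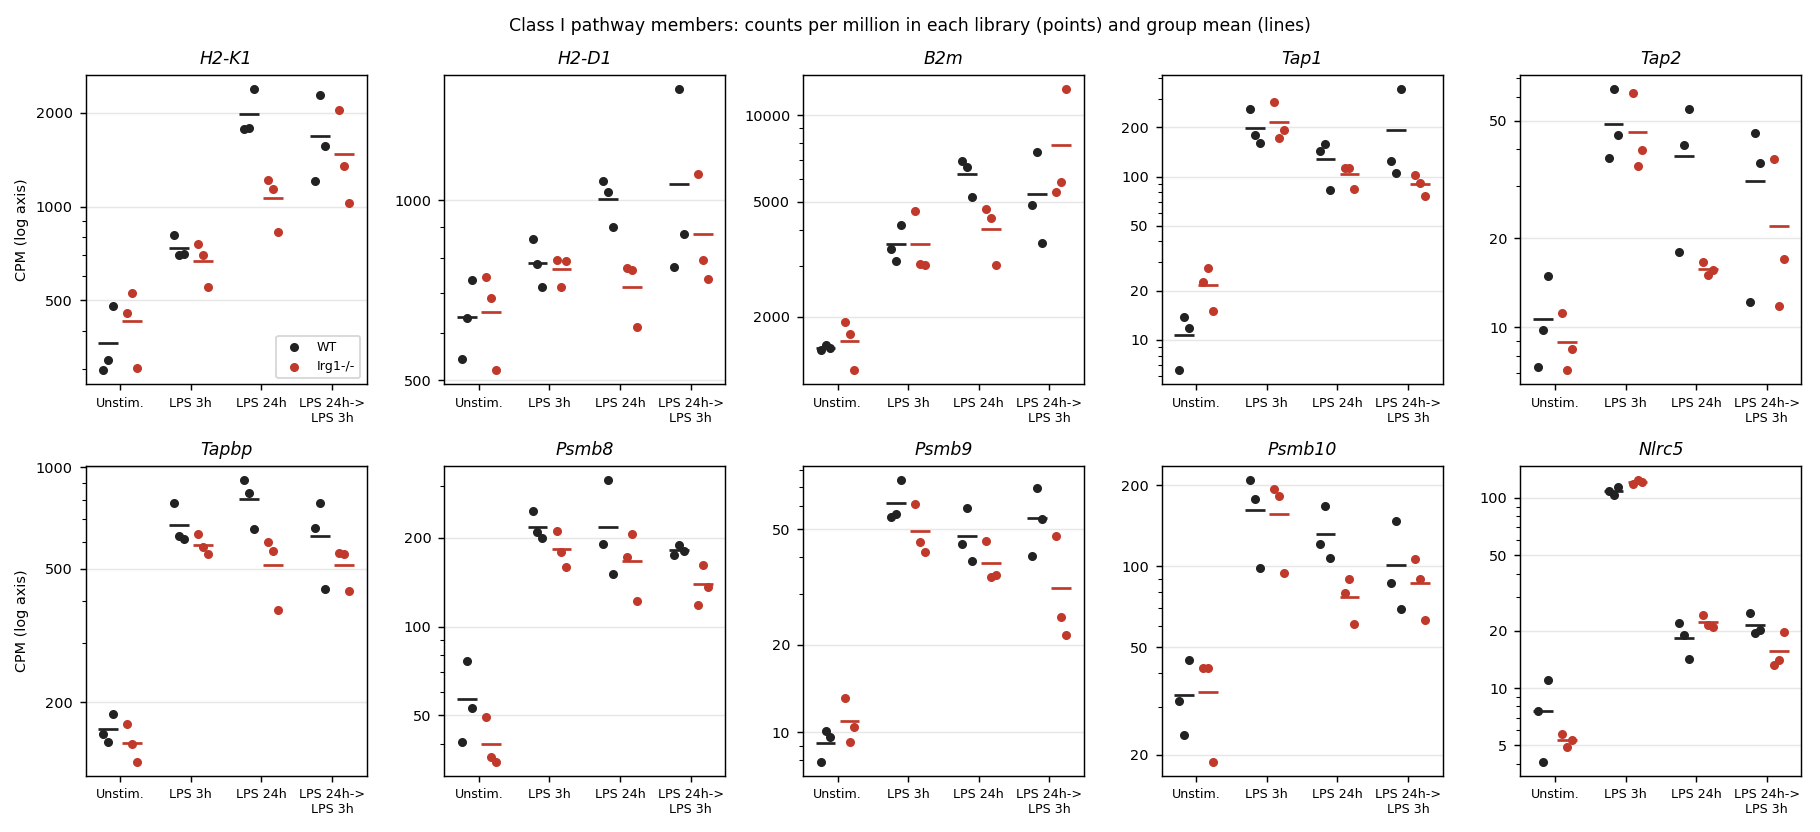
Normalized read counts (CPM, log axis) of the 10 members in each library (points) and the mean of each group of 3 (lines), by treatment, for WT (black) and Irg1-/- (red) BMDMs. Nlrc5 stands at 104 CPM or more in each LPS 3h library and under 25 in each library of the later times, while H2-K1 and B2m were highest on average at the later times in both genotypes.

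The heavy chain H2-K1 climbed in steps. In WT cells its level was 298, 321 and 478 CPM in Unstim., 811, 697 and 706 after LPS 3h, 1772, 1786 and 2390 after LPS 24h, and 1206, 2276 and 1565 after restimulation. The first 3 groups did not overlap, while the restimulated libraries overlapped those of LPS 24h. H2-K1 was 2.02-fold higher after LPS 3h than in Unstim. (log2 1.01 ± 0.30 SE, n = 3 per group, adjusted p = 0.0102 by edgeR) and rose 2.69-fold more by LPS 24h (log2 1.43 ± 0.31, adjusted p = 0.000586). The first of these calls was lost without WT Unstim. replicate 1 (adjusted p = 0.0522).

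Without IRG1, H2-K1 was at 457, 529 and 304 CPM in Unstim., 757, 699 and 554 after LPS 3h, 1220, 1138 and 826 after LPS 24h, and 2040, 1348 and 1024 after restimulation. These levels again went up without overlap up to LPS 24h, but the single steps of 0.64 (LPS 3h against Unstim.) and 0.66 (LPS 24h against LPS 3h) on the log2 scale did not pass the test (adjusted p = 0.0986 and 0.0849 by edgeR). The sum of both steps did: LPS 24h was 2.47-fold above Unstim. (log2 1.30 ± 0.31, adjusted p = 0.00268).

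H2-D1, the other classical heavy chain, did not pass edgeR's test in any comparison. In WT cells it was at 543, 634 and 734 CPM in Unstim., 862, 782 and 715 after LPS 3h, 1077, 1032 and 903 after LPS 24h, and 774, 1536 and 876 after restimulation. LPS 24h libraries stood above both earlier groups, with a log2 difference from Unstim. of 0.66 ± 0.27 (adjusted p = 0.102 by edgeR, 0.0457 by DESeq2's Wald test). Its Irg1-/- levels ranged from 520 to 744 CPM in Unstim. and from 615 to 770 after LPS 24h, so these groups overlapped (log2 0.14 ± 0.27, adjusted p = 0.806).

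H2-K1 therefore moved against H2-D1 within single libraries. Their log2 ratio was -0.86, -0.98 and -0.62 in WT Unstim. and 0.72, 0.79 and 1.40 after LPS 24h, with -0.09 ± 0.07 (SD) on average after LPS 3h between them. The Irg1-/- ratios were -0.70, -0.37 and -0.77 in Unstim. and 0.66, 0.57 and 0.43 after LPS 24h. In both genotypes every library of LPS 24h and of restimulation lay above every Unstim. library, and the mean change from Unstim. to LPS 24h was 1.79 in WT and 1.17 in Irg1-/- cells. The change to LPS 3h was 0.73 in WT without overlap and 0.41 in Irg1-/- cells with overlap. A library's depth cancels in this ratio, which was chosen after the values were seen and was not tested.

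**Figure D2:**
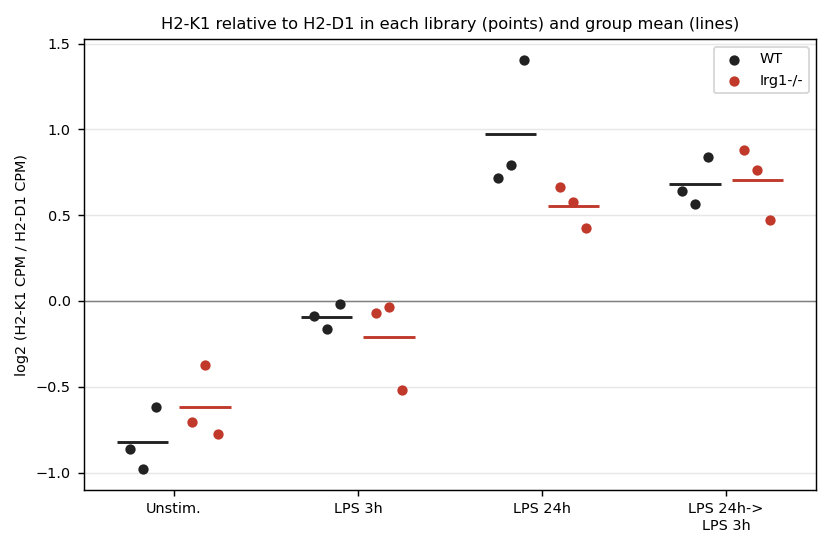
Log2 ratio of H2-K1 CPM to H2-D1 CPM in each library (points) and the group means (lines), by treatment, for WT (black) and Irg1-/- (red) BMDMs. Every Unstim. and LPS 3h library lay below every library of LPS 24h and of restimulation. The sign of the ratio is not read, since levels were not compared between genes.

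B2m, the light chain shared by all class I molecules, followed H2-K1 in WT cells. Its level was 1532, 1597 and 1556 CPM in Unstim., 3437, 3112 and 4145 after LPS 3h, 6955, 6623 and 5181 after LPS 24h, and 4887, 7469 and 3593 after restimulation. It was 2.28-fold higher after LPS 3h (log2 1.19 ± 0.32, adjusted p = 0.00415 by edgeR) and 4.00-fold higher after LPS 24h than in Unstim. (log2 2.00 ± 0.33, adjusted p = 2.48e-05). The further rise of 0.81 ± 0.32 from LPS 3h to LPS 24h sat at the threshold (adjusted p = 0.0484) and was lost without any single one of the 6 libraries (adjusted p = 0.0667 to 0.196).

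B2m of Irg1-/- cells was at 1911, 1748 and 1305 CPM in Unstim., 4652, 3057 and 3031 after LPS 3h and 4707, 4382 and 3012 after LPS 24h. The LPS groups stood above Unstim. (log2 1.11 ± 0.32 and 1.29 ± 0.32, adjusted p = 0.00667 and 0.00469) and overlapped each other (log2 0.17 ± 0.31, adjusted p = 0.701). With the label prefix as a term, the differences from Unstim. were 1.29 and 0.98 on the log2 scale. The first rests on 1 LPS 3h library, so it is given without a test and is not to be read as passing. The second missed the threshold (adjusted p = 0.154 by edgeR). After restimulation replicate 3 of Irg1-/- cells held 12345 CPM, well above replicates 1 and 2 at 5399 and 5846, and all 3 lay above the LPS 24h libraries.

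The peptide transporter genes rose early and did not climb further. Tap1, one chain of the transporter, was at 6.51, 13.7 and 11.8 CPM in WT Unstim. libraries, 258, 179 and 160 after LPS 3h and 143, 158 and 82.8 after LPS 24h. It was 18.7-fold higher after LPS 3h (log2 4.22 ± 0.42, adjusted p = 1.56e-09 by edgeR) and 12.0-fold higher after LPS 24h than in Unstim. (log2 3.58 ± 0.41, adjusted p = 6.13e-08). From LPS 3h to LPS 24h the log2 difference was -0.64 ± 0.37 (adjusted p = 0.190), although the groups did not overlap. In restimulated WT cells Tap1 stood at 125 and 106 CPM in replicates 1 and 2 and at 345 CPM in replicate 3, the highest Tap1 value of all libraries.

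Irg1-/- cells had Tap1 at 22.6, 27.7 and 14.99 CPM in Unstim. and went to 288, 171 and 193 after LPS 3h, 113, 112 and 83.5 after LPS 24h and 102, 91.4 and 76.1 after restimulation. The rise at LPS 3h was 10.0-fold (log2 3.33 ± 0.41, adjusted p = 8.49e-08 by edgeR). From there Tap1 fell by 1.08 on the log2 scale to LPS 24h (adjusted p = 0.0245). That call was lost without LPS 3h replicate 1 (adjusted p = 0.0951) or LPS 24h replicate 3 (0.0845). With the label prefix as a term, which leaves 1 LPS 3h library, the difference was -1.52.

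Tap2, the other chain, was at 7.34, 9.83 and 14.9 CPM in WT Unstim. libraries, 37.5, 64.2 and 44.9 after LPS 3h and 18.0, 41.4 and 54.6 after LPS 24h. It rose 4.57-fold at LPS 3h (log2 2.19 ± 0.45, adjusted p = 0.000263 by edgeR) and stayed 3.55-fold above Unstim. at LPS 24h (log2 1.83 ± 0.44, adjusted p = 0.00337). Irg1-/- Tap2 went from 11.2, 7.16 and 8.46 CPM in Unstim. to 62.3, 35.3 and 39.9 after LPS 3h and back to 16.7, 15.1 and 15.7 after LPS 24h. This fall of 1.54 on the log2 scale passed the test (adjusted p = 0.00682). With the label prefix as a term, which leaves 1 LPS 3h library, the difference was -0.68.

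Tapbp, which encodes tapasin, held its early rise in both genotypes. WT cells went from 152 to 185 CPM in Unstim. to 614 to 783 after LPS 3h and 656 to 917 after LPS 24h, which was 4.06-fold and 4.83-fold above Unstim. (log2 2.02 ± 0.27 and 2.27 ± 0.28, adjusted p = 5.72e-07 and 1.91e-07 by edgeR). The Irg1-/- folds were 3.88 and 3.38 (log2 1.96 ± 0.27 and 1.76 ± 0.27). LPS 3h and LPS 24h libraries overlapped in each genotype.

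The 3 catalytic subunits of the immunoproteasome rose together at LPS 3h in both genotypes. Psmb8 rose 3.86-fold in WT (from 40.7, 76.7 and 52.8 to 247, 209 and 200 CPM) and 4.58-fold in Irg1-/- cells (from 49.2, 36.2 and 34.8 to 211, 179 and 160 CPM). Psmb9 rose 6.69-fold in WT (from 7.92, 10.1 and 9.61 to 54.9, 56.2 and 73.8 CPM) and 4.52-fold in Irg1-/- cells, while Psmb10 rose 4.84-fold (from 31.7, 23.7 and 44.7 to 209, 178 and 98.7 CPM) and 4.59-fold. Each of these 6 differences passed edgeR's test, with adjusted p-values from 6.33e-08 (Psmb9 in WT) to 2.58e-05 (Psmb10 in Irg1-/-).

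At LPS 24h the subunits held much of that rise. Psmb8 stood at 191, 315 and 151 CPM in WT cells, a log2 difference of 0.00 ± 0.29 from LPS 3h (adjusted p = 1.0), and at 172, 206 and 122 CPM in Irg1-/- cells (-0.14 ± 0.29, adjusted p = 0.748). Psmb9 differed from LPS 3h by -0.38 ± 0.31 in WT and by -0.37 ± 0.31 in Irg1-/- cells, with overlap in both. Psmb10 differed by -0.30 ± 0.36 in WT (adjusted p = 0.556 by edgeR) and fell by 1.03 in Irg1-/- cells, from 193, 182 and 94.1 to 79.2, 89.3 and 61.1 CPM (adjusted p = 0.0270). That fall was lost without LPS 3h replicate 1 or 2 or LPS 24h replicate 1 or 3 (adjusted p from 0.0550 to 0.0869). The rise of Psmb10 from Unstim. to LPS 24h in Irg1-/- cells (log2 1.17 ± 0.37, adjusted p = 0.0293) was lost without Unstim. replicate 3 (0.145) or LPS 24h replicate 1 (0.0678) or 2 (0.104) and with the label prefix as a term (log2 0.65, adjusted p = 0.408).

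Each inducible subunit replaces a constitutive one, Psmb5 for Psmb8, Psmb6 for Psmb9 and Psmb7 for Psmb10. None of the 3 constitutive genes passed the test at LPS 3h in either genotype, with log2 differences of 0.53 to 0.74 in WT and -0.09 to 0.69 in Irg1-/- cells. At LPS 24h Psmb5 and Psmb7 were higher than in Unstim. in WT (log2 1.13 ± 0.35 and 1.25 ± 0.34, adjusted p = 0.0230 and 0.00947 by edgeR) and not past the threshold in Irg1-/- cells (0.74 and 0.06, adjusted p = 0.182 and 0.946). The log2 ratio of Psmb8 to Psmb5 within a library went from 1.83 ± 0.50 (SD) in WT Unstim. to 3.15 ± 0.19 after LPS 3h without overlap, and to 2.72 ± 0.49 after LPS 24h with overlap. The Irg1-/- ratio went from 1.30 ± 0.31 to 3.51 ± 0.33 and 2.55 ± 0.15, both without overlap. The ratios of Psmb9 to Psmb6 and of Psmb10 to Psmb7 were also above Unstim. without overlap after LPS 3h in both genotypes. After LPS 24h both were so in WT, with changes of 1.95 and 0.72. Without IRG1 the first was (1.51) and the second overlapped (1.12).

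Nlrc5, the transactivator, peaked at LPS 3h. Its level was 7.54, 4.11 and 10.97 CPM in WT Unstim. libraries, 108, 104 and 114 after LPS 3h, 22.04, 19.04 and 14.2 after LPS 24h and 24.9, 19.4 and 20.1 after restimulation. Irg1-/- libraries held 5.77, 4.90 and 5.35 in Unstim., 118, 124 and 121 after LPS 3h, 24.1, 21.4 and 20.9 after LPS 24h and 13.2, 13.995 and 19.7 after restimulation. The first 3 groups of each genotype did not overlap, and the replicates of LPS 3h lay close together.

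Nlrc5 rose 14.3-fold in WT (log2 3.84 ± 0.33, adjusted p = 4.57e-11 by edgeR) and 22.5-fold in Irg1-/- cells (log2 4.49 ± 0.34, adjusted p = 4.36e-12). By LPS 24h it had fallen 5.90-fold in WT and 5.45-fold in Irg1-/- cells from that level (adjusted p = 1.28e-07 and 1.98e-07), and it was still 2.42-fold and 4.14-fold above Unstim. (adjusted p = 0.00260 and 1.19e-05). With the replicate block and the label prefix together, the WT difference between LPS 24h and Unstim. missed the threshold (log2 1.02, adjusted p = 0.0599).

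From LPS 3h to LPS 24h the counts of called members in WT were near those of all genes. In WT cells 2 were higher (H2-K1 and B2m, background 16.8%) and 1 lower (Nlrc5, background 15.5%), and the other 7 differed by -0.64 to 0.35 on the log2 scale. In Irg1-/- cells 0 of 10 were higher by edgeR or DESeq2 (background 18.2%; H2-K1 had an unadjusted p of 0.0352) and 4 lower, namely Tap1, Tap2, Psmb10 and Nlrc5 (background 16.9%). The median over all genes was 0.14 in WT and 0.15 in Irg1-/- cells, so the members' values are to be read against that shift. The label prefix as a term leaves 1 LPS 3h library in Irg1-/- cells. With it Tap1, Tap2 and Psmb10 differed by -1.52, -0.68 and -0.97 on the log2 scale. Whether the step differed between the genotypes was not tested.

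**Figure D3:**
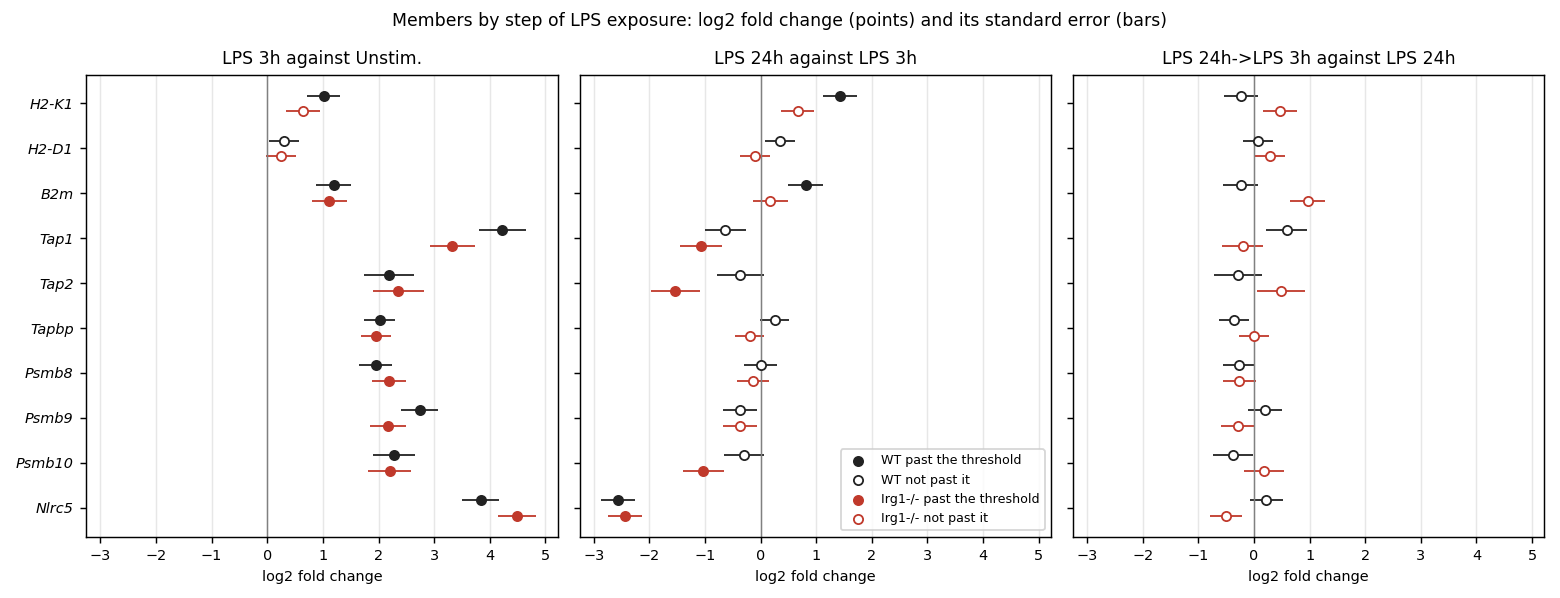
Log2 fold change (points) with its standard error (bars) of each member for LPS 3h against Unstim., LPS 24h against LPS 3h and restimulation against LPS 24h, for WT (black) and Irg1-/- (red) BMDMs, 3 libraries per group. Filled points passed edgeR's test at an adjusted p of 0.05; 9 WT and 8 Irg1-/- members did in the first step and 0 in the last.

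A second LPS stimulus moved none of the 10 members past edgeR's threshold, beside a low share of all genes. Against LPS 24h alone, 0 of 10 restimulated members passed edgeR's test in WT (0 also by DESeq2 and 0 at an unadjusted p under 0.05; background 3.99%), with log2 differences of -0.38 to 0.59. Of the Irg1-/- members 0 of 10 passed (1 by DESeq2 and 1 at an unadjusted p under 0.05, B2m; background 5.14%), with differences of -0.50 to 0.96. B2m had the largest of these, 0.96 ± 0.32 (adjusted p = 0.0781 by edgeR), and it passed the test under DESeq2, when genes with a mean under 10 counts were dropped and without restimulation replicate 1. Nlrc5, which LPS had raised 14.3-fold in naive WT cells, was 1.16-fold higher after restimulation in WT (adjusted p = 0.796) and 1.42-fold lower in Irg1-/- cells (adjusted p = 0.443).

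Tolerized cells given LPS for 3 h were also compared with naive cells given LPS for 3 h. In WT, 1 member was higher (H2-K1, 2.28-fold, log2 1.19 ± 0.30, adjusted p = 0.00416 by edgeR; background 12.4%) and 1 lower (Nlrc5, 5.07-fold, log2 -2.34 ± 0.30, adjusted p = 9.70e-07; background 13.1%). Without restimulation replicate 2 the H2-K1 call was lost (log2 0.88, adjusted p = 0.0522). Irg1-/- cells had 2 higher (H2-K1, 2.20-fold, and B2m, 2.20-fold; background 13.1%) and 2 lower (Tap1, 2.42-fold, and Nlrc5, 7.73-fold; background 14.1%). The B2m call was lost without restimulation replicate 3, the library with 12345 CPM (log2 0.63, adjusted p = 0.155), the H2-K1 call without restimulation replicate 1 (log2 0.79, adjusted p = 0.0799) and the Tap1 call without LPS 3h replicate 1 (log2 -1.05, adjusted p = 0.0603). The label prefix as a term leaves 1 naive LPS 3h library in Irg1-/- cells. With it the difference was 0.68 for B2m and 1.20 for H2-K1 on the log2 scale. With the replicate block as well, it was -1.70 for Tap1. The median over all genes was 0.13 in WT and 0.12 in Irg1-/- cells.

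Between the genotypes no member passed edgeR's test in any treatment. In Unstim. cells 0 of 10 passed (0 by DESeq2 and 1 at an unadjusted p under 0.05; background 0.0421%), with Tap1 showing a log2 difference of 1.02 ± 0.38 in favour of Irg1-/- cells without overlap (adjusted p = 0.664). After LPS 3h 0 of 10 passed (0 by DESeq2 and 0 at an unadjusted p under 0.05; background 0.00842%), and all 10 differences lay between -0.32 and 0.15. Groups without overlap numbered 1 in Unstim. (Tap1; 9.44% of all genes) and 1 after LPS 3h (Nlrc5, higher in Irg1-/- cells; 9.08% of all genes).

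After LPS 24h most members were lower in Irg1-/- than in WT cells, though 0 of 10 passed edgeR's test (1 by DESeq2, H2-K1, and 4 at an unadjusted p under 0.05; background 0.598%). The log2 difference was negative for 9 members, with a median of -0.56 against -0.01 for all genes. For 6 members every Irg1-/- library lay below every WT library, which held for 8.99% of all genes in that direction (16.5% in either direction). These were H2-K1 (-0.90 ± 0.30), H2-D1 (-0.49 ± 0.27), B2m (-0.63 ± 0.32), Tap2 (-1.27 ± 0.43), Tapbp (-0.65 ± 0.27) and Psmb10 (-0.78 ± 0.36), with adjusted p-values from 0.205 (H2-K1) to 0.580 (H2-D1). Tap1, Psmb8 and Psmb9 were lower by -0.31, -0.39 and -0.32 with overlap, and Nlrc5 was at 0.27 ± 0.29. WT LPS 24h replicate 3 had the highest share of reads outside genes of all libraries (33.7%, against 24.4% and 23.5% in the other WT LPS 24h libraries). Without it the differences of these 6 genes were -0.72, -0.53, -0.72, -0.88, -0.74 and -0.88, and the calls over all genes went from 71 to 12. The 10 genes were measured in the same 6 libraries and are not independent, so these counts carry no test.

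The label prefix differed between these groups, since all 3 Irg1-/- libraries have prefix 1 and the WT libraries have prefixes 1, 2 and 4. Against the single WT library of prefix 1 the log2 differences were -0.76 for H2-K1, -0.60 for H2-D1, -0.81 for B2m, -0.19 for Tap2, -0.87 for Tapbp and -0.67 for Psmb10. With the prefix as a term they were -0.67, -0.41, -0.76, -0.33, -0.77 and -0.81 in the same order. The difference in Tap2 thus shrank, while the other 5 lay at -0.41 or lower. WT libraries of Tap2 stood at 18.0, 41.4 and 54.6 CPM, the lowest of them close to the Irg1-/- libraries at 16.7, 15.1 and 15.7.

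After restimulation 0 of 10 members differed between the genotypes by edgeR's test (0 by DESeq2 and 2 at an unadjusted p under 0.05, Tap1 and Psmb9; background 0.118%). Tap1 was 2.14-fold lower in Irg1-/- cells (log2 -1.10 ± 0.37, adjusted p = 0.312) and Psmb9 1.74-fold lower (-0.80 ± 0.31, adjusted p = 0.440). Against the WT libraries of the same prefix, the Tap1 difference was -0.59 in prefix 1 and -0.05 in prefix 2, without the WT library at 345 CPM. Groups did not overlap for 2 members, Tap1 and Psmb8 (12.9% of all genes).

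The genotype differences in the response itself did not pass either. For LPS 3h against Unstim. 0 of 10 interaction terms passed edgeR's test (0 by DESeq2, 0 at an unadjusted p under 0.05; background 0.00842%). For LPS 24h against Unstim. 0 of 10 passed (0 by DESeq2, 2 at an unadjusted p under 0.05; background 0.21%), with the lowest values in Tap1 (-1.33 ± 0.53, adjusted p = 0.464) and H2-K1 (-1.13 ± 0.43, adjusted p = 0.420). For restimulation against LPS 24h 0 of 10 passed (0 by DESeq2, 1 at an unadjusted p under 0.05; background 0.00842%), with B2m at 1.20 ± 0.45 (adjusted p = 0.393).

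**Figure D4:**
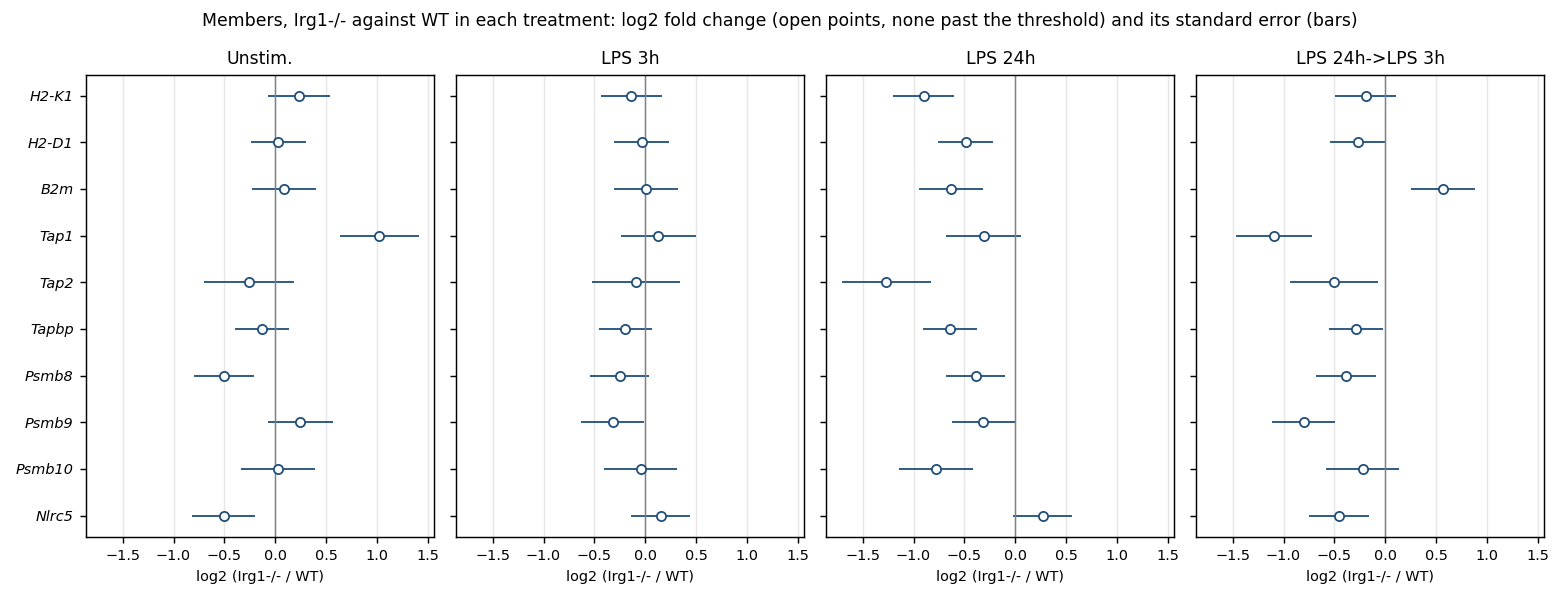
Log2 fold change of Irg1-/- against WT BMDMs (points) with its standard error (bars) for each member in the 4 treatments, 3 libraries per group. Open points did not pass edgeR's test; after LPS 24h 9 of 10 points lie below 0, with a median of -0.56.

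The rest of the pathway was followed in 45 further genes in 7 groups. At LPS 3h 19 of 45 were higher than in Unstim. in WT and 19 of 45 in Irg1-/- cells (15.8% and 17.0% of all genes), with 1 and 5 lower. Of all 11878 genes, 3805 were called there in WT (1874 of them higher) and 4260 in Irg1-/- cells (2018 higher). At LPS 24h 17 and 11 were higher (9.25% and 7.31% of all genes) and 1 was lower in each genotype. All genes called were then 1928 (1099 higher) and 1626 (868 higher). Restimulation moved 0 of 45 against LPS 24h in WT by edgeR and lowered 2 in Irg1-/- cells, near the shares of all genes in either direction (3.99% and 5.14%).

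The PA28 activator, which opens the proteasome core, rose with the immunoproteasome. Psme2 was higher by 2.80 ± 0.31 (log2) at LPS 3h in WT and by 2.52 ± 0.31 in Irg1-/- cells (adjusted p = 1.08e-08 and 7.48e-08 by edgeR). Psme1 was higher by 1.47 ± 0.37 and 1.88 ± 0.37. Of the 11 structural subunits of the 20S core, 4 rose at LPS 3h in WT and 3 in Irg1-/- cells (15.8% and 17.0% of all genes). They were led by Psma6 (1.94 ± 0.32 and 1.54 ± 0.32). None of the 3 trimming peptidases passed the test at LPS 3h or LPS 24h against Unstim. Of the 4 chaperones of the loading complex only Tapbpl, a tapasin-like gene, rose at LPS 3h (1.76 ± 0.37 and 1.45 ± 0.37).

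The non-classical class I and class I-like genes, taken as one group, held many of these rises. At LPS 24h 7 of 11 were higher than in Unstim. in WT and 8 of 11 in Irg1-/- cells (9.25% and 7.31% of all genes). H2-Q7 rose by 3.59 ± 0.37 (log2) at LPS 3h and stood 5.14 ± 0.40 above Unstim. at LPS 24h in WT (adjusted p = 1.90e-11 by edgeR), and by 3.16 ± 0.37 and 4.33 ± 0.39 in Irg1-/- cells. H2-M3, which presents formylated peptides, stood 2.57 ± 0.30 and 1.67 ± 0.30 above Unstim. at LPS 24h. H2-T10 held 1 count in the 3 WT Unstim. libraries together and was at least 25.8-fold higher at LPS 3h, against a floor of 3 counts per library. Fcgrt, the neonatal Fc receptor, also pairs with B2m and fell by 1.67 in WT and by 2.44 in Irg1-/- cells at LPS 24h (adjusted p = 0.000502 and 3.39e-06). The Q and T genes are known to resemble each other and H2-K1 and H2-D1 in sequence. Shared words were not counted for them, so their counts are taken as uncertain.

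Of the 9 regulators of class I transcription, 5 rose at LPS 3h in each genotype (15.8% and 17.0% of all genes), and 1 fell in WT and 3 in Irg1-/- cells. Of all 11878 genes, 3805 were called in WT (1874 of them higher) and 4260 in Irg1-/- cells (2018 higher). Irf1, an interferon regulatory factor, was at 64.8, 64.3 and 56.7 CPM in WT Unstim. libraries, 2194, 2042 and 2137 after LPS 3h, 116, 173 and 265 after LPS 24h and 139, 124 and 222 after restimulation. Like Nlrc5 it peaked at LPS 3h (log2 5.10 ± 0.34, adjusted p = 1.48e-13 by edgeR) and fell by 3.52 to LPS 24h (adjusted p = 4.26e-10).

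Irf1 of Irg1-/- cells was at 51.3, 59.0 and 57.7 CPM in Unstim., 1947, 1936 and 1818 after LPS 3h, 93.9, 76.0 and 62.8 after LPS 24h and 92.0, 132 and 99.1 after restimulation. Of the 45 genes it was the only one that edgeR's test called between the genotypes in any treatment. After LPS 24h the Irg1-/- libraries lay below the WT ones without overlap (log2 -1.25 ± 0.29, adjusted p = 0.0314 by edgeR). Irf1 was named after its values were seen. The call was kept under 7 of 15 alternatives (log2 -1.52 to -0.87, adjusted p = 0.000761 to 0.386). It was lost with the label prefix as a term (-1.03, adjusted p = 0.198), when the fit held the 2 groups alone (0.311) and without any single library of these groups other than WT LPS 24h replicate 1 (-0.87 when WT LPS 24h replicate 3 was left out).

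The shape of the members' mean course was compared with that of all other genes. Over the 24 libraries, the members' mean z-score of log2 CPM correlated most closely with Il1rn (Pearson r = 0.966), Isg15 (0.954), Ccl2 (0.954), Parp10 (0.952) and Mlkl (0.948), among 11878 genes ranked and outside both lists. The libraries of a group share a treatment, so these values are a description of the course over 8 groups. Among the members, Tapbp was closest to the mean of the other 9 (r = 0.966), and Nlrc5 (0.656), H2-D1 (0.677), H2-K1 (0.737) and B2m (0.757) were the least close.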

How the data were processed

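According to the methods and labels, cDNA was made by the authors from barcoded oligo-dT primers, pooled, amplified and sequenced from 3′ ends, and STAR aligned the reads to mm10. The values used are the raw read counts per gene as deposited by the authors, whole numbers without normalization. The counting program, annotation, strand setting and test for these data are not given in the sources used here. The primer carries no molecular identifier, so PCR copies were counted and precision from counts covers counting error only. The 5 summary lines entered neither library sizes nor tests, and 0 columns were left unused. Groups and culture numbers came from the sample labels.

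Symbols were assigned through GENCODE M21 (GRCm38). Counts were scaled by TMM, genes filtered by filterByExpr on the 8 groups, and 17 contrasts tested with edgeR's quasi-likelihood test on all 24 libraries (16 residual degrees of freedom), with Benjamini-Hochberg adjustment over 11878 genes and a threshold of 0.05. A standard error is the log2 fold change divided by the square root of F. CPM are TMM-scaled, and log2 CPM used a prior count of 2. The procedure was tested on simulated counts. Replicates of a group were not copies (chi-square per degree of freedom of at least 27.8).

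The named genes are all 10 members, and of 45 pathway genes up to 4 per group: the highest and lowest among those called, and partners of a member. The members and lists were chosen with earlier results of these data known. Alternatives were DESeq2's size factors and Wald test, TMM without the 20 genes with the most counts, 2 other filters, the compared groups alone, the replicate number as a block, the label prefix as a term, both together, prefix-matched libraries and each library left out. The fits used edgeR 4.0.16 with limma 3.58.1 in R 4.3.3, DESeq2 1.42.0 as the other tool, and matplotlib 3.10.9, SciPy 1.17.1 and pandas 2.3.3 under Python 3.11.15.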

Additional observations from a re-analysis of the deposited data

Results flagged for a closer look

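For Nlrc5 the libraries of the 2 genotypes lay on opposite sides of their LPS 24h mean after restimulation. Every restimulated Irg1-/- library (13.2, 13.995 and 19.7 CPM) lay below the mean of LPS 24h (22.15 CPM), and every restimulated WT library (24.9, 19.4 and 20.1 CPM) lay above that of WT LPS 24h (18.4 CPM). The WT groups overlapped, since LPS 24h replicate 1 held 22.04 CPM, and neither step passed edgeR's test (log2 0.22 in WT, adjusted p = 0.796, and -0.50 in Irg1-/- cells, adjusted p = 0.443). The difference between the genotypes in this response was -0.72 ± 0.42 on the log2 scale, and its interaction term did not pass edgeR's test (adjusted p = 0.668).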

How the results depend on the processing

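Of 153 recounts of the members called under other settings, 144 stayed within 1.5 times the value in the report, and so did 116 of the 120 that left out 1 library. The label prefix as a term, alone or with the replicate block, lowered the counts for Irg1-/- LPS 24h and restimulation against LPS 3h. It leaves 1 library in that LPS 3h group. For restimulated against naive Irg1-/- cells at LPS 3h the count was 7 by DESeq2's test (4 in the report). DESeq2's test and the filter on a mean of 10 counts each called 1 (B2m) for restimulation in Irg1-/- cells, and DESeq2 (H2-K1) and no filter (Tap2, adjusted p = 0.0404) each called 1 between the genotypes after LPS 24h, against 0. Leaving out 1 library gave 1 to 2 for restimulated against naive WT cells, 2 to 4 for Irg1-/- LPS 24h against LPS 3h (2 without LPS 3h replicate 1 or LPS 24h replicate 3), 0 to 1 for Irg1-/- restimulation and 3 to 5 for restimulated against naive Irg1-/- cells. Signs reversed for H2-D1 in Irg1-/- LPS 3h against Unstim. (-0.15 with the prefix, -0.11 with block and prefix) and for Psmb9 between the genotypes after LPS 24h (0.0055 and 0.086). The cause was not tested. The lowest count of a member in any library was 26 (Nlrc5 in Irg1-/- Unstim.).

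The culture numbers are shared by the labels of all groups, but same-numbered libraries did not deviate together (every pair over 0.1 in 0 of 14 comparisons; in 1, Irg1-/- LPS 3h against Unstim., all 3 correlated best with their own number). The numbers were therefore not read as pairs. With the replicate block alone no count of members moved by over 1.5 times. Over all genes, the block moved the calls after LPS 3h in WT from 3805 to 4046, those between the genotypes in Unstim. cells from 5 to 3, and those for the genotype difference in restimulation from 1 to 0.

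Calls over all genes moved by over 1.5 times as follows. For restimulation they went from 474 in WT to 749 without a filter, 771 by DESeq2 and 109 with the 2 groups alone, and from 611 in Irg1-/- cells to 1080 with the 2 groups alone. Between the genotypes they went, without a filter, from 5 to 39 (Unstim.), 1 to 32 (LPS 3h), 71 to 246 (LPS 24h) and 14 to 133 (restimulation), and by DESeq2 to 29, 7, 234 and 113. With the 2 groups alone they were 0 in Unstim., 3 after LPS 24h and 4 after restimulation, and after restimulation 9 both with the filter on a mean of 10 counts and with TMM without the top 20 genes. The genotype differences in response went from 1, 25 and 1 to 26, 112 and 170 without a filter, and the latter 2 to 91 and 52 by DESeq2 and 13 and 0 with the compared groups alone. For restimulation this last count was also 0 with DESeq2's size factors, with TMM without the top 20 genes and with the filter on a mean of 10 counts. In Irg1-/- cells the prefix, alone or with the block, lowered the calls for comparisons with LPS 3h, where it leaves 1 LPS 3h library. With prefix and block together, LPS 24h against Unstim. went from 1626 to 690 in these cells. Between the genotypes the prefix gave 12 and 6 calls after LPS 24h and restimulation (12 and 5 with the block). For the genotype difference in restimulation it gave 7 (6 with the block), while that in LPS 24h was 13 with both. Leaving out 1 library gave 9 to 165 calls between the genotypes after LPS 24h (165 without WT LPS 24h replicate 1, 12 without WT replicate 3 or Irg1-/- replicate 2, 9 without Irg1-/- replicate 3 and 30 without Irg1-/- replicate 1), so the share of all genes called there is unstable. It gave 0 to 5 in Unstim., 1 to 7 after LPS 3h and 4 to 30 after restimulation. For restimulation it gave 266 to 510 in WT and 370 to 442 in Irg1-/- cells, and for the genotype differences in response 1 to 4, 7 to 45 and 0 to 25.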

Other observations

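H2-T23, the mouse Qa-1 gene that presents leader peptides of other class I chains, was high in a single library. It was at 79.6 CPM in Irg1-/- LPS 24h replicate 2, and at 4.87 and 7.82 CPM in replicates 1 and 3 of that group. The other groups held 0.156 to 11.4 CPM. Its rise over Unstim. in that group (log2 5.02) and its fall on restimulation (log2 -3.10) were both past edgeR's threshold. Without that library the rise was 2.68 (adjusted p = 0.0344) and the fall was no longer called (log2 -0.80, adjusted p = 0.806). H2-T22 was the other class I gene called lower on restimulation in Irg1-/- cells (log2 -1.53 ± 0.37, adjusted p = 0.00971 by edgeR).

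Rfxank, a subunit of the RFX complex that works with NLRC5 at class I promoters, had the opposite course. This gene held 1275 counts over all libraries together, and its calls under other settings are not given. It was lower at LPS 3h than in Unstim. (log2 -1.62 ± 0.55 in WT and -1.34 ± 0.54 in Irg1-/- cells, adjusted p = 0.0231 in WT by edgeR, and at the threshold in Irg1-/- cells) and higher at LPS 24h than at LPS 3h (2.97 ± 0.56 and 2.22 ± 0.53, adjusted p = 0.000125 and 0.00151).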
